A study of Homo sapiens with 4 samples.

Results

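The 10 genes described here encode enzymes that make serine, asparagine and proline or that pass the carbon of serine into the folate cycle: PHGDH, PSAT1, PSPH, SHMT1, SHMT2, MTHFD2, MTHFD1L, ASNS, ALDH18A1 and PYCR1. They were taken by name, as enzymes of these pathways, and no measured value enters the rule, although earlier results of these data were known when the list was drawn up. All 10 were found among the 57820 gene rows of the deposited count files, and all 10 were among the 16468 genes with enough counts to be tested. RNA was sequenced from SY5Y (SH-SY5Y), an established human neuroblastoma (NB) cell line with wild type MYCN, grown in medium with serum and added glutamine and collected 12 h after treatment. The 2 control libraries came from cells given the solvent DMSO, and the 2 treated libraries from cells given 3 μM SGSS05-NS. The labels name the compound SGSS05-NS, whereas the study's methods name SGSS05-NS3, an inhibitor of the histone methyltransferase SETD8, at a lower dose for these cells. A figure legend of the study instead gives 3 μM SGSS05-NS3 for 12 h for its SY5Y expression data, the dose of the labels. Whether both names stand for 1 compound was not settled from these sources, since the study also mentions SGSS05-NS as a compound in its own right. The study states that the replicates were independent biological ones, so the design asks which genes differ between treated and control cells beyond the spread of 2 cultures against 2.

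Between 21463105 and 25350204 fragments per library fell on genes. Of the markers of adrenergic neuroblastoma, 9 of 10 had at least 10 fragments in every library, with a summed level of 3548 and 3823 CPM (counts scaled to library size, TMM-normalized) with DMSO, while TH had at most 2 fragments in a library. The summed level over all libraries was at most 6.82 CPM for 6 fibroblast markers, 2.03 CPM for 4 Schwann cell markers and 0.180 CPM for 4 blood and vessel markers, with PRRX1, DCN, SOX10 and HBB at 0. With SGSS05-NS the adrenergic sum was 2015 and 2242 CPM, and the share of fragments outside annotated exons was 15.3% and 16.1% against 12.3% and 12.4% with DMSO. The part of these shifts in the results below was not tested. KMT5A, which encodes SETD8, had 54.6 and 56.8 CPM with DMSO and 82.8 and 83.0 CPM with SGSS05-NS. In bulk RNA, fewer cells that express a gene and less of its RNA per cell cannot be told apart.

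Serine is made from a glycolytic intermediate in 3 steps, catalysed by phosphoglycerate dehydrogenase (PHGDH), phosphoserine aminotransferase (PSAT1) and phosphoserine phosphatase (PSPH). Serine hydroxymethyltransferase, cytosolic as SHMT1 and mitochondrial as SHMT2, then splits serine into glycine and a one-carbon unit on folate, which MTHFD2 and MTHFD1L carry on to formate in the mitochondrion. Asparagine synthetase (ASNS) makes asparagine from aspartate and glutamine, and ALDH18A1 and PYCR1 make proline from glutamate. Many of these genes are known targets of ATF4, the transcription factor of the amino acid and integrated stress response, and several are also targets of MYC and MYCN, which drive proliferation in neuroblastoma.

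Short stretches of promoter are shown for the members that hold the letters of a site of one of these factors, since ATF4 and MYC transcripts moved in opposite directions here, as described further on. They were read on the gene's strand from the RefSeq promoter table of GRCh38.p14, whose windows run from 250 bases before to 50 bases after an annotated start and cover 7 of the 10 genes. No window was listed for PSPH, SHMT2 or PYCR1. The core shared by ATF4 and C/EBP proteins, TGATGNAA, was searched on both strands, as was CACGTG, the E-box that MYC proteins bind, which reads the same on both strands. The first was present in 3.62% of 35116 windows and the second in 7.26%. Each was found in 2 of the 7 genes, which hold 11 windows, so this count per gene cannot be set against those shares per window. Capitals mark the matched letters.
ASNS core, chr7:97872458-97872487, minus strand: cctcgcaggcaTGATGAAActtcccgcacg
MTHFD1L core, chr6:150866346-150866375, plus strand: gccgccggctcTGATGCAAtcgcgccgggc
MTHFD1L E-box, chr6:150866321-150866348, plus strand: acgcccggctcCACGTGcgcagccggcc
ALDH18A1 E-box, chr10:95656831-95656858, minus strand: ggctggcccgcCACGTGgagcgctggct
In ASNS the first matched base lay 68 bases before the start. In MTHFD1L, which has several annotated starts, the core lay 129 and 90 bases before 2 of them and 24 bases after another. The E-box of ALDH18A1 lay 136 bases before its start. A match of letters is a description and does not show that a factor was bound.

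MTHFD2 was the member that rose with SGSS05-NS at the study's threshold, an adjusted p-value under 0.001, and no member fell. The other 9 did not pass it in edgeR's quasi-likelihood test. At an unadjusted p under 0.05 there were 4 members higher and 4 lower. Over all genes that share is at least the 22.6% higher and 23.7% lower that passed an adjusted p of 0.05. The likelihood ratio test called 2 members higher and 1 lower at 0.001, beside 2022 and 2267 of all 16468 genes. DESeq2 called 2 members higher and 0 lower, beside 1142 and 1598 of all genes. Over all genes tested, the quasi-likelihood test called 14.5% at 0.001, 6.37% as higher and 8.14% as lower. Its 1 call in 10 members is near this background and is no result about the group. At a looser adjusted p-value of 0.05 the count was 4 higher (MTHFD2, ASNS, PHGDH and SHMT2) and 3 lower (PSPH, MTHFD1L and SHMT1), beside 22.6% of all genes higher and 23.7% lower. All members stayed within a narrow band, from a log2 fold change of -0.47 for PSPH to 0.56 for MTHFD2. Their median was 0.06, and that of all tested genes was 0.01, with a median absolute value of 0.37. The 2 libraries of one group lay entirely above or below those of the other for 8 members, 4 in each direction, as they did for 74.7% of all genes tested.

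**Figure D1:**
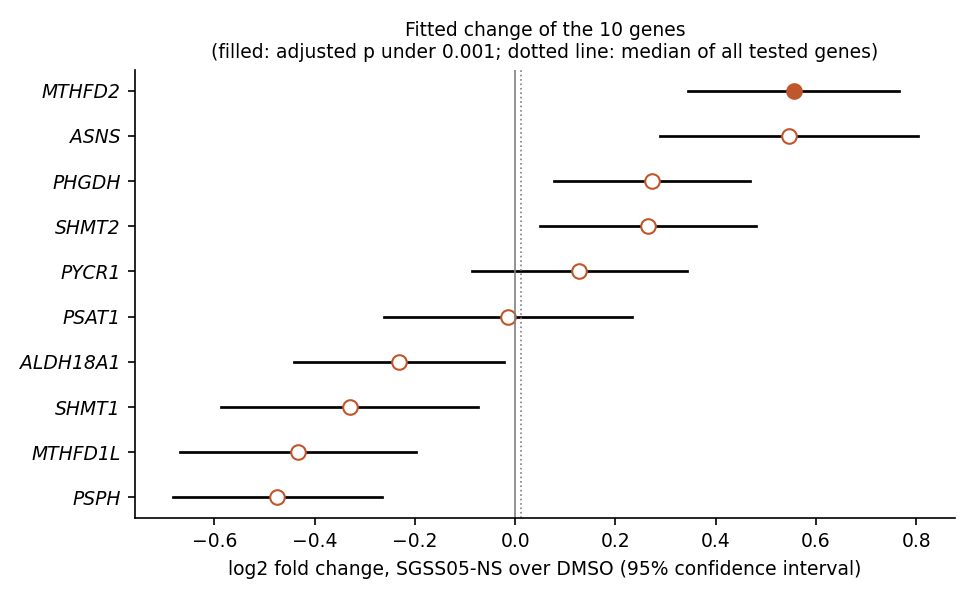
Fitted log2 fold change of SGSS05-NS over DMSO for each gene (x axis) with its 95% confidence interval, from 2 libraries against 2. MTHFD2 is the filled point at 0.56, past an adjusted p-value of 0.001, and the intervals of PYCR1 and PSAT1 include 0.

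In the serine pathway the first and last enzymes differed in direction. PHGDH (ENSG00000092621, chromosome 1 of GRCh37 from 120191034 to 120286841, plus strand), the committed step, had 143 and 143 CPM with DMSO and 172 and 174 CPM with SGSS05-NS. Both treated libraries lay above both controls, with little spread within either group. The log2 fold change of PHGDH was 0.27 (standard error 0.09, 95% confidence interval 0.08 to 0.47, edgeR quasi-likelihood adjusted p = 0.026), which missed 0.001. It also missed 0.05 without DMSO replicate 1, DMSO replicate 2 or SGSS05-NS replicate 2 (edgeR adjusted p = 0.13, 0.16 and 0.057), at log2 fold changes of 0.25 to 0.27. PSPH (ENSG00000146733, chromosome 7 from 56078744 to 56119297, minus strand) had 52.2 and 51.5 CPM with DMSO and 36.5 and 38.1 CPM with SGSS05-NS. The treated libraries were the lower ones, well apart from the controls. Its log2 fold change was -0.47 (standard error 0.10, interval -0.68 to -0.27, edgeR adjusted p = 0.0018), and it passed 0.001 with the likelihood ratio test that the study names, at an adjusted p of 1.2e-04 from edgeR. PSPH has a near copy, PSPHP1, with at most 119 fragments in a library, and pairs that map to both are not counted, so its level may be understated. The same limit holds for ASNS, MTHFD2, PSAT1 and SHMT1, which also have named copies. Of those copies ASNSP1 had the most, with at most 44 fragments in a library.

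PSAT1, the middle step, did not differ detectably. PSAT1 (ENSG00000135069, chromosome 9 from 80912041 to 80945009, plus strand) had 83.3 and 106 CPM with DMSO and 94.7 and 92.6 CPM with SGSS05-NS. Both treated libraries fell between the 2 controls, whose own difference was the wider one. The log2 fold change of PSAT1 was -0.01 with an interval from -0.26 to 0.23 (edgeR adjusted p = 0.93), so a change of the size fitted for MTHFD2 lies outside it. Its sign depended on the DMSO library used: it was 0.15 without DMSO replicate 2 and -0.19 without DMSO replicate 1.

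**Figure D2:**
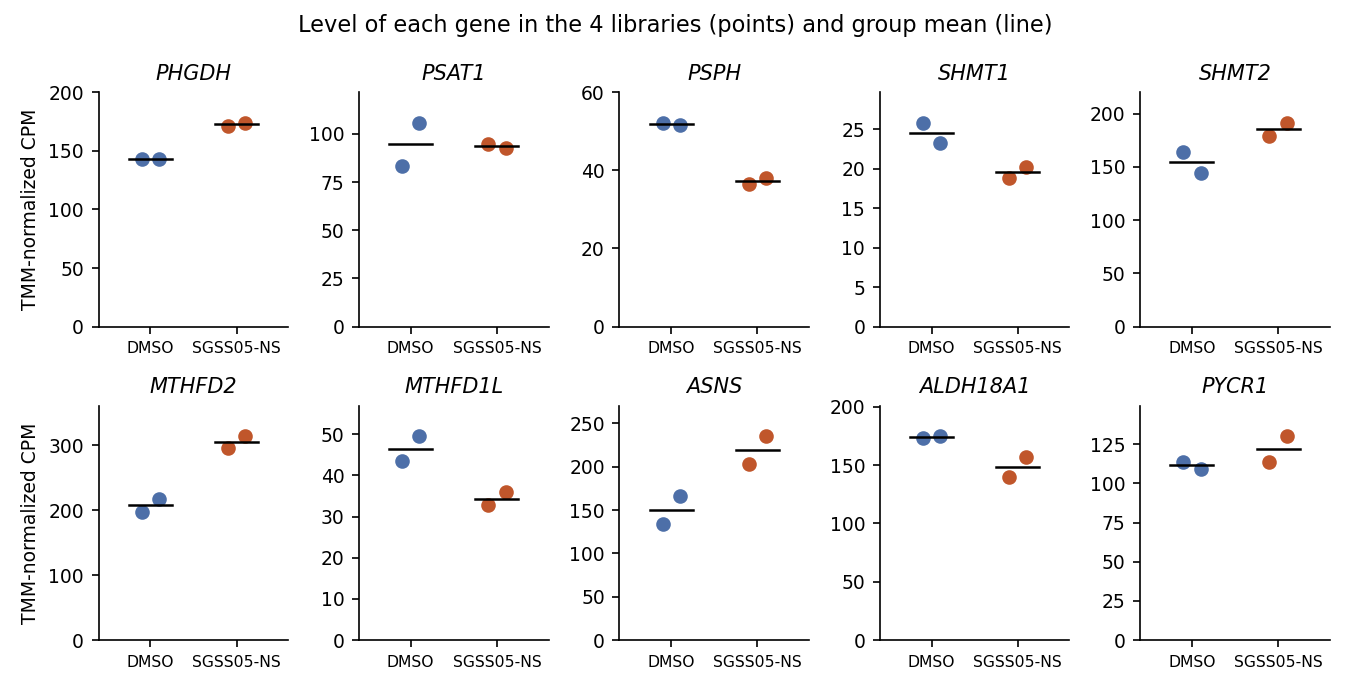
TMM-normalized CPM of each gene (y axes from 0, one scale per panel) in the 2 DMSO and 2 SGSS05-NS libraries (points), with group means (lines). The groups overlap for PSAT1 and PYCR1, and the widest gap between groups in CPM is that of MTHFD2, 197 and 218 against 296 and 314 CPM.

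In the one-carbon branch the mitochondrial dehydrogenase stood out. MTHFD2 (ENSG00000065911, chromosome 2 from 74413299 to 74444692, plus strand), a mitochondrial methylenetetrahydrofolate dehydrogenase and cyclohydrolase that is low in most adult tissues and high in tumours, had 197 and 218 CPM with DMSO and 296 and 314 CPM with SGSS05-NS. It took the largest share of counts of the members in all 4 libraries, before any correction for length, and its groups were clearly apart. MTHFD2 rose by a log2 fold change of 0.56 (standard error 0.10, interval 0.35 to 0.76, edgeR adjusted p = 6.7e-04), which placed it at percentile 81.8 of the log2 fold changes of all genes. The call was lost without DMSO replicate 1, where the value was 0.48 (edgeR adjusted p = 0.0046), and with counts taken without regard to strand, where it was 0.49 (edgeR adjusted p = 0.0014).

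MTHFD1L, the mitochondrial formyltetrahydrofolate synthetase that acts after MTHFD2, went the other way. MTHFD1L (ENSG00000120254, chromosome 6 from 151186815 to 151423023, plus strand) had 43.4 and 49.6 CPM with DMSO and 32.7 and 36.1 CPM with SGSS05-NS. The treated libraries were both lower than the controls. Its log2 fold change was -0.43 (standard error 0.11, interval -0.67 to -0.20, edgeR adjusted p = 0.0064), short of 0.001, and -0.35 without DMSO replicate 2 (edgeR adjusted p = 0.053).

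The 2 hydroxymethyltransferases also pointed in opposite directions. SHMT2 (ENSG00000182199, chromosome 12 from 57623356 to 57628718, plus strand) had 164 and 144 CPM with DMSO and 179 and 192 CPM with SGSS05-NS. SHMT1 (ENSG00000176974, chromosome 17 from 18231174 to 18266877, minus strand), the cytosolic enzyme, had 25.8 and 23.2 CPM with DMSO and 18.8 and 20.2 CPM with SGSS05-NS. Neither gene's groups overlapped, but the 2 control libraries of SHMT2 differed from each other by more than the nearer control and treated libraries did. Fitted values were log2 fold changes of 0.27 for SHMT2 (interval 0.05 to 0.48, edgeR adjusted p = 0.044) and -0.33 for SHMT1 (interval -0.59 to -0.07, edgeR adjusted p = 0.037), and neither passed 0.001. SHMT2 ranged from 0.16 to 0.35 and SHMT1 from -0.42 to -0.26 as each library in turn was dropped. Neither passed 0.05 throughout: the edgeR adjusted p of SHMT2 was 0.41 without DMSO replicate 2 and 0.13 without SGSS05-NS replicate 2, and that of SHMT1 was 0.21 without DMSO replicate 1 and 0.10 without SGSS05-NS replicate 1.

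ASNS (ENSG00000070669, chromosome 7 from 97480989 to 97501854, minus strand) makes asparagine and is a classical target of the amino acid response. It had 134 and 166 CPM with DMSO and 203 and 235 CPM with SGSS05-NS. The treated libraries were the higher ones, and in each group the libraries differed by about as much as in the other, which is the widest replicate spread of the 10 genes in CPM. ASNS had a log2 fold change of 0.55 (standard error 0.12, interval 0.29 to 0.80, edgeR adjusted p = 0.0027). It missed 0.001, although its size was close to that of MTHFD2. ASNS passed 0.001 with the likelihood ratio test (adjusted p = 2.0e-04 from edgeR) and with DESeq2 (adjusted p = 3.5e-04). It depended on single libraries, with 0.39 without DMSO replicate 1 (edgeR adjusted p = 0.022) and 0.44 without SGSS05-NS replicate 2 (edgeR adjusted p = 0.0079), but 0.69 without DMSO replicate 2 (edgeR adjusted p = 2.2e-05) and 0.64 without SGSS05-NS replicate 1 (edgeR adjusted p = 1.6e-04).

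The 2 members of proline synthesis did not pass either threshold in the main test. ALDH18A1 (ENSG00000059573, chromosome 10 from 97365698 to 97416468, minus strand), which encodes the synthase of the first steps from glutamate, had 173 and 175 CPM with DMSO and 140 and 157 CPM with SGSS05-NS. PYCR1 (ENSG00000183010, chromosome 17 from 79890260 to 79900288, minus strand), a mitochondrial reductase of the last step, had 114 and 109 CPM with DMSO and 114 and 130 CPM with SGSS05-NS. The treated libraries of ALDH18A1 lay below the controls, whereas 1 treated library of PYCR1 lay among them. The log2 fold change was -0.23 for ALDH18A1 (interval -0.44 to -0.02, edgeR adjusted p = 0.067) and 0.13 for PYCR1 (interval -0.09 to 0.34, edgeR adjusted p = 0.31). That of PYCR1 was 0.03 without SGSS05-NS replicate 2, 0.22 without SGSS05-NS replicate 1 and 0.08 without DMSO replicate 2. That of ALDH18A1 was -0.32 without SGSS05-NS replicate 2 and -0.15 without SGSS05-NS replicate 1. ALDH18A1 passed 0.05 without a filter on low counts (-0.26, edgeR adjusted p = 0.041) and without regard to strand (-0.27, edgeR adjusted p = 0.038).

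**Figure D3:**
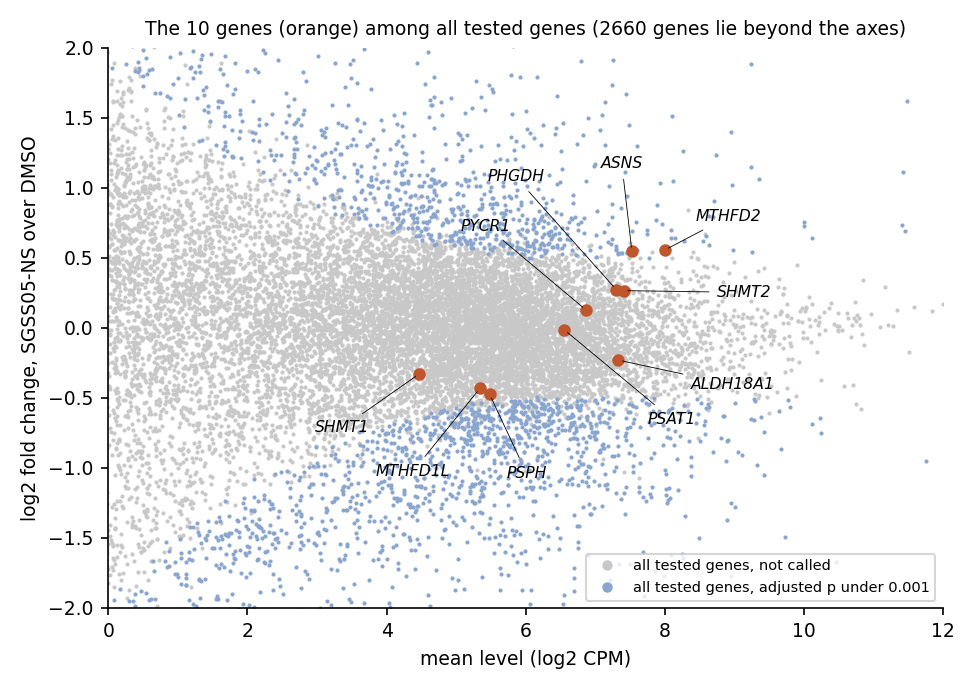
Mean level (x axis, log2 CPM) and log2 fold change of SGSS05-NS over DMSO (y axis) of the tested genes within the axes, with the 10 genes in orange. The 10 genes sit at mean levels where many genes with larger changes in either direction were called.

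Ratios of pairs within a library do not depend on how libraries are scaled against each other. For 5 pairs chosen for this purpose, the level of each gene was divided by the length of its canonical transcript, and the log2 ratio was compared between groups with a two-sided exact permutation test, whose smallest possible p is 0.333 for 2 libraries against 2. SHMT2 to SHMT1 had log2 ratios of 2.90 and 2.86 in the DMSO and 3.48 and 3.47 in the SGSS05-NS libraries, a difference of 0.60 (exact p = 0.333). MTHFD1 is a cytosolic enzyme whose reactions include those of MTHFD2. MTHFD2 to MTHFD1 stood at -0.16 and 0.03 in the DMSO and 0.92 and 0.93 in the SGSS05-NS libraries, a difference of 0.99 (exact p = 0.333). In both pairs the mitochondrial partner weighed more in each treated library than in each control. PSPH to PHGDH, the last against the first step of serine synthesis, stood at -1.54 and -1.55 in the DMSO and -2.31 and -2.27 in the SGSS05-NS libraries, a difference of -0.75 (exact p = 0.333). The pooled SD within groups was 0.02, 0.10 and 0.02 for these 3 pairs, but an SD from 2 libraries a group is poorly known. The fitted standard errors of SHMT1 (0.12) and PSPH (0.10) alone were larger than 0.02. With 2 libraries a group this exact test cannot take the 3 differences past a threshold.

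A further pair did not separate the groups. MTHFD1L to MTHFD1 stood at -1.996 and -1.756 in the DMSO and -1.90 and -1.84 in the SGSS05-NS libraries (difference 0.00, exact p = 1). MTHFD1 itself had 158 and 153 CPM with DMSO and 112 and 118 CPM with SGSS05-NS. After adjustment over the 5 pairs no p could fall under the raw 0.333.

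**Figure D4:**
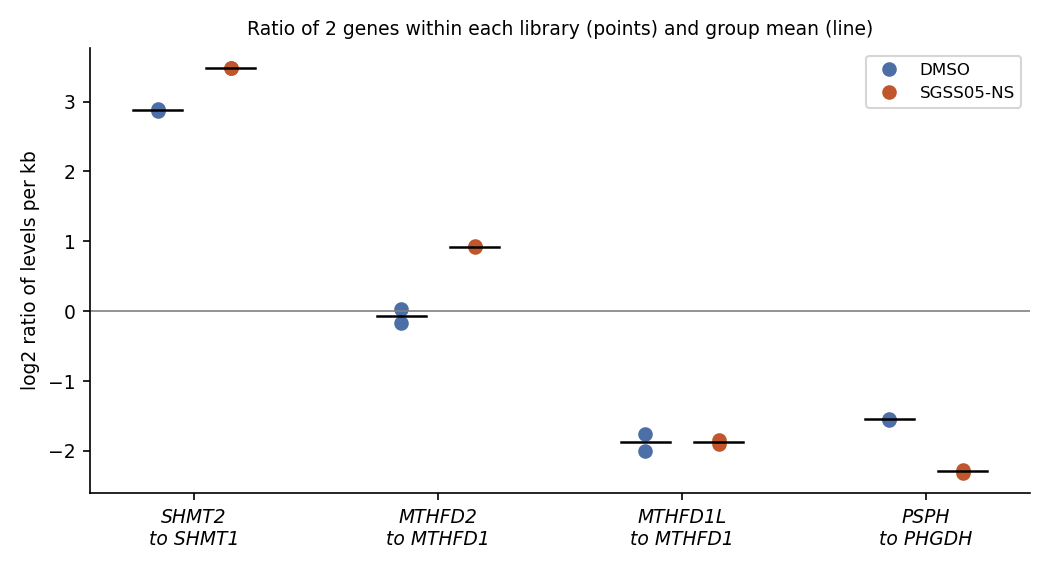
Log2 ratio of the levels per kb of 2 genes (y axis) within each DMSO or SGSS05-NS library (points), with group means (lines). The groups separate for SHMT2 to SHMT1, MTHFD2 to MTHFD1 and PSPH to PHGDH, and overlap for MTHFD1L to MTHFD1.

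Per kb of canonical transcript, the members spanned a 7.90-fold range of levels with DMSO and a 12.0-fold range with SGSS05-NS. PHGDH was highest, with 76.7 ± 0.232 CPM per kb (SD, n = 2) with DMSO and 92.6 ± 0.958 CPM per kb with SGSS05-NS, and SHMT1 lowest, with 9.71 ± 0.723 and 7.72 ± 0.381 CPM per kb. The order with DMSO was PHGDH, SHMT2, ASNS, ALDH18A1, PYCR1, MTHFD2, PSAT1, PSPH, MTHFD1L and SHMT1. The library ranges of SHMT2 and ASNS, of PYCR1 and MTHFD2, and of MTHFD2 and PSAT1 overlapped, so these neighbours had no clear order. With SGSS05-NS, ASNS at 91.9 ± 9.53 CPM per kb overlapped with both PHGDH and SHMT2 (86.0 ± 3.99 CPM per kb), and MTHFD2 stood next at 69.2 ± 2.88 CPM per kb, above PYCR1 and ALDH18A1. PSPH, MTHFD1L and SHMT1, the lowest members in both groups, were also the members with the 3 largest negative fold changes. Lengths are those of the canonical transcripts in GENCODE 44, and that of MTHFD2, 4403 bases, exceeds those of most of its other annotated transcripts, so its place in the order depends on that choice. The 10 genes together took 1131 and 1185 CPM with DMSO and 1286 and 1389 CPM with SGSS05-NS.

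Neighbouring steps of these pathways, their regulators and other ATF4 targets were described with 8 further lists of 107 genes. Of these, 96 were tested, 20 rose and 6 fell, beside 6.37% higher and 8.14% lower over all genes. Most of the rises were not in pathway steps. The other ATF4 targets held 12 higher and 0 lower of 21 tested, and the regulators 4 higher and 3 lower of 11 tested. Of the 18 tested genes of the folate cycle and its transport, none passed 0.001 in edgeR's quasi-likelihood test, and at an adjusted p of 0.05 there were 0 higher and 4 lower, where all genes had 22.6% higher and 23.7% lower. At an unadjusted p under 0.05 the folate genes counted 1 higher and 6 lower, where the shares over all genes are at least those 22.6% and 23.7%. The likelihood ratio test and DESeq2 each called 0 higher and 1 lower at 0.001. Over all 16468 genes the likelihood ratio test called 2022 higher and 2267 lower, and DESeq2 1142 and 1598. The median log2 fold change of the 18 folate genes was -0.15, and MTHFD1 had a log2 fold change of -0.44 (edgeR adjusted p = 0.0023). Of 6 purine synthesis genes, which use one-carbon units, PFAS fell from 139 and 141 CPM to 68.5 and 70.7 CPM (log2 fold change -1.01). PFAS was the 1 gene of the 6 called at 0.001. At an adjusted p of 0.05 there were 0 higher and 3 lower, beside 22.6% and 23.7% of all genes. The groups did not overlap for 5 of the 6, all with the treated libraries lower, beside 74.7% of all genes counting both directions. The share for lower alone was not counted, so no fall of the list is read from this. In the methionine cycle, MTR, the synthase that takes its methyl group from folate, fell from 238 and 258 CPM to 131 and 119 CPM (log2 fold change -0.98, edgeR adjusted p = 1.2e-05), and the other 4 tested genes were not called in that test. At 0.001 the likelihood ratio test called 1 of the 5 tested genes of this cycle higher and 2 lower, and DESeq2 0 higher and 2 lower. The counts of these tests over all genes are those given above beside the folate genes.

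Among 16 tested genes that use serine or glycine, CTH and ALAS1 rose and SPTLC2 fell. CTH, cystathionine gamma-lyase, which makes cysteine with sulfur from methionine and carbon from serine, rose from 5.42 and 6.08 CPM to 13.97 and 17.05 CPM (log2 fold change 1.43, edgeR adjusted p = 2.8e-05). ALAS1, the first enzyme of heme synthesis, which uses glycine, had a log2 fold change of 0.95, and SPTLC2, a subunit of the serine palmitoyltransferase that starts sphingolipid synthesis, one of -0.56. CBS, the step before CTH, had 170 and 179 CPM with DMSO and 168 and 180 CPM with SGSS05-NS, with a log2 fold change of -0.00. On the proline side, PRODH, the enzyme that breaks proline down, had 3 and 4 fragments with DMSO and 36 and 28 with SGSS05-NS. Its log2 fold change was 3.23 (edgeR adjusted p = 1.3e-04). PRODH passed the filter on low counts only through the treated libraries, where it was high, so this call is no independent support for a rise. ARG2, a mitochondrial arginase, rose by a log2 fold change of 1.12. None of the 12 tested genes of aspartate, glutamate and glutamine metabolism was called in edgeR's quasi-likelihood test, beside 6.37% higher and 8.14% lower over all genes. At an adjusted p of 0.05 there were 4 higher and 1 lower, beside 22.6% and 23.7% of all genes. At an unadjusted p under 0.05 there were 5 higher and 1 lower, where the shares over all genes are at least those 22.6% and 23.7%. The likelihood ratio test called 2 of the 12 higher and DESeq2 1, beside 2022 and 1142 of all 16468 genes. GLUL, glutamine synthetase, took the most counts among them, with a log2 fold change of 0.51 (edgeR adjusted p = 0.0016).

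**Figure D5:**
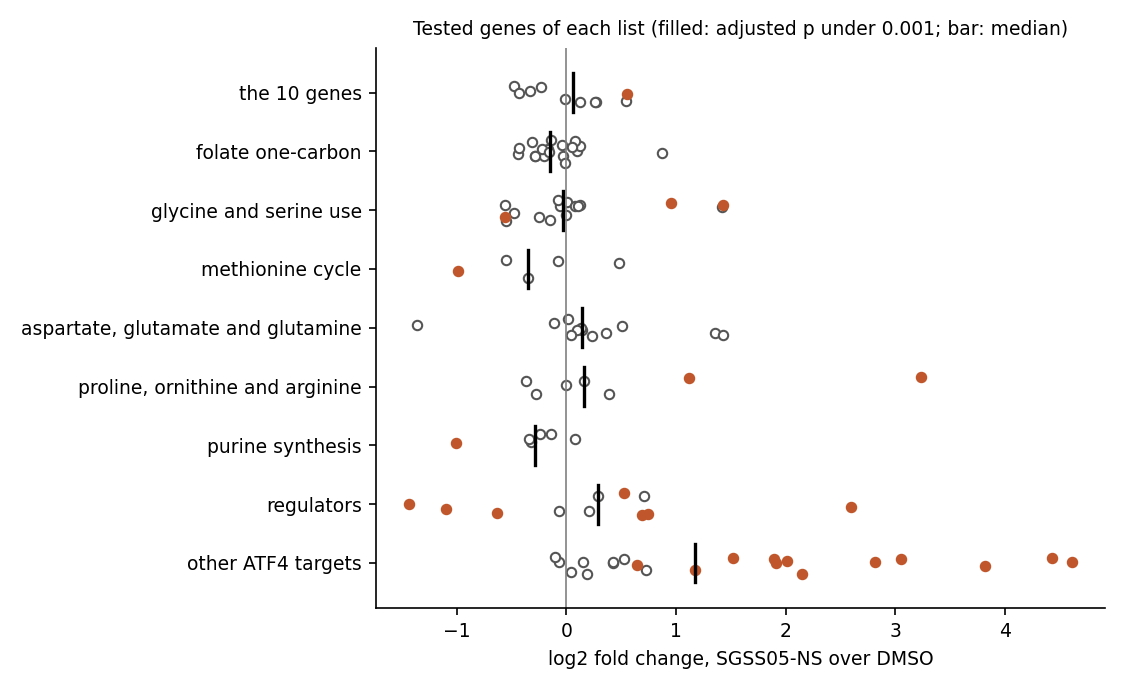
Log2 fold change of SGSS05-NS over DMSO (x axis) for the tested genes of each list (points, filled where the adjusted p-value was under 0.001), with the median as a bar. The 10 genes lie between -0.47 and 0.56, and the ATF4 targets outside amino acid synthesis reach 4.61.

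The transcripts of the regulators of these enzymes moved in both directions. ATF4 rose from 138 and 144 CPM to 213 and 243 CPM (log2 fold change 0.69, edgeR adjusted p = 1.7e-04), and its partners CEBPG (0.74) and CEBPB (2.60) were also called higher. Of 21 ATF4 targets outside amino acid synthesis, 12 rose and none fell in edgeR's quasi-likelihood test, beside 6.37% higher and 8.14% lower over all genes. The likelihood ratio test called 14 higher and 0 lower, and DESeq2 13 higher and 0 lower. Over all 16468 genes these tests called 2022 and 1142 higher. At an unadjusted p under 0.05 there were 16 higher and 0 lower. Over all genes that share is at least the 22.6% higher and 23.7% lower that passed an adjusted p of 0.05. The median log2 fold change of the list was 1.17 beside 0.06 for the 10 members, and its lowest was -0.10. The 9 not called included SLC38A2 (0.42) and NARS1 (0.19), those with the highest levels. DDIT3, the stress transcription factor CHOP, rose by a log2 fold change of 4.61, ATF3 by 4.43, SESN2, an inhibitor of mTORC1, by 3.82 and PPP1R15A, which resets the stress response, by 3.05, beside 0.55 for ASNS. That list was written with earlier results of these data known, and several of its genes answer to other stress factors as well. MYC fell from 169 and 174 CPM to 93.1 and 67.6 CPM (log2 fold change -1.09, edgeR adjusted p = 4.6e-05). MYCN, at 6.22 and 6.76 CPM with DMSO and 1.98 and 2.81 CPM with SGSS05-NS, fell by a log2 fold change of -1.43. EIF2AK4, which encodes the kinase GCN2 that senses uncharged tRNA, fell by a log2 fold change of -0.63.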

How the data were processed

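RNA-seq libraries of SY5Y cells (2 DMSO, 2 SGSS05-NS) were grouped by their labels. Read pairs were trimmed (Trimmomatic 0.30) and mapped to hg19 by STAR 2.4.2a with GENCODE 19 by the authors, who deposited raw fragment counts per gene, not normalized or pooled. The 4 summary rows were left out. They held, among others, unassigned fragments, which made up between 12.3% and 16.1% outside exons and between 14.3% and 15.4% mapped to several places. The reverse-strand counts were used, since the opposite column held between 4.64% and 5.05% of stranded gene counts. The labels name a TruSeq RNA kit, and the methods a stranded total RNA kit with ribosomal RNA removal.

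The main test on these counts was the quasi-likelihood test of edgeR 4.0.16 under R 4.3.3 (low counts removed by filterByExpr, TMM scaling, Benjamini-Hochberg over 16468 genes, threshold 0.001, standard error as the log2 fold change over the root of F). The study used edgeR's likelihood ratio test, tried as an alternative with DESeq2 1.42.0, other scalings, filters, thresholds, unstranded counts, the replicate number as a block and single libraries left out. Symbols, positions and transcript lengths came by identifier from GENCODE 44 on GRCh37, and 2282 identifiers had no entry. Replicates differed by more than sampling noise (chi-square over degrees of freedom 8.76 with DMSO and 11.8 with SGSS05-NS). The scripts were tested on simulated data. All 10 members were named. From each other list, up to 4 called genes with the smallest p and up to 2 uncalled genes with the highest level were named, and any regulator. The untested genes of the pathway lists had at most 9 fragments in a library. PECAM1 had no identifier here. The members, lists and pairs were chosen with earlier results of these data known. Some genes of the lists, and 1 of the 5 pairs, are not reported here.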

Additional observations from a re-analysis of the deposited data

Results flagged for a closer look

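Fragments on the strand opposite to SHMT2, a column not used in the comparisons, were more frequent with SGSS05-NS, with 13 and 24 fragments (mean 0.803 CPM) against 1 and 5 with DMSO (0.0399 and 0.214 CPM). SHMT2 itself had 3980 and 4504 fragments in the treated libraries, and NDUFA4L2 is annotated on the opposite strand over part of the gene. The part of that gene in these fragments was not tested.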

How the results depend on the processing

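The log2 fold change of each member kept its direction in every alternative run, except that of PSAT1, which was 0.0178 with library size scaling and between -0.19 and 0.15 with single libraries left out. Members called higher and lower (1 and 0) became 2 and 1 with the likelihood ratio test, 2 and 0 with DESeq2, 2 and 2 without a filter on low counts, 0 and 0 without regard to strand and 4 and 3 at an adjusted p of 0.05. With single libraries left out, where the lone library is assumed to vary like the others, 0 to 2 were called higher and 0 lower. The genes of the 8 further lists, regulators and other ATF4 targets included (20 and 6), became 27 and 11 without the filter and 32 and 18 at 0.05. All genes (1049 and 1341) became 2022 and 2267 with the likelihood ratio test, 2034 and 2570 without the filter and 3728 and 3903 at 0.05. The difference in the SHMT2 to SHMT1 ratio was 0.54 without regard to strand. The causes of these shifts were not tested. The labels give same-numbered libraries only a shared number, and the correlation of their deviations was 0.05. With 2 libraries per group the 2 pairs mirror each other, so this value cannot show whether libraries were paired. With the replicate number as a block 2 members were higher and 1 lower, and 1759 and 2007 of all genes. With 2 libraries per group, the spread of a gene is largely estimated from other genes.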
